A study of Zea mays with 18 samples.

Results

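The miR172 family of maize was followed through leaf and root small RNA of seedlings of the inbred line Q319. Its members were all entries whose name begins with zma-miR172, which gave 8 distinct names of the 253 names in both tables. Such a name was carried by 8 rows at sufficient phosphate, and they came to 5 entries once rows with identical values were counted once, of 197 entries in all. At low phosphate 7 rows came to 4 entries of 156. Choosing by name used no measured value.

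Seedlings grew in nutrient solution with 1000 μM KH2PO4 (sufficient phosphate, SP) until the 3-leaf stage, which is day 0, and then either stayed there or moved to 5 μM KH2PO4 (low phosphate, LP). The SP table held 2 libraries for each organ on day 0 and 2 on day 8, the 4-leaf stage. The LP table held 1 library for each organ on days 0, 1, 2, 4 and 8, without repeats, and its day 0 libraries came before any time at low phosphate. All plants were of the same inbred line with no transgene or mutation in the labels, and each biological repeat pooled 15 to 20 plants. The p-values at SP therefore measure spread between pools of plants, with 2 pools a group. Those at LP measure spread between days of the course, since each point was 1 library. The tables list miRNAs only, so the organ labels could not be checked against marker mRNAs. In whole-organ libraries, fewer cells making a miRNA and fewer copies per cell cannot be told apart. Reads summed over all listed miRNAs ranged from 8528196 to 14285855 per SP library, and the LP libraries held 12884774 to 21384928 clean reads, recovered from the steps between low values.

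MicroRNAs are cut from a hairpin precursor as a short duplex. The guide strand is kept by an ARGONAUTE protein and pairs with target mRNAs, while the partner, the star strand, is mostly degraded. In plants miR172 represses AP2-like transcription factors; among its targets in maize is Glossy15, which promotes juvenile leaf traits. Its level climbs as shoots pass from the juvenile to the adult phase, and miR156, which represses SPL transcription factors, is abundant early and declines over the same passage.

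The guide strands miR172a, miR172b, miR172c and miR172d had identical counts in all 8 SP libraries, so their reads cannot be assigned to a hairpin and are given here as zma-miR172a, in short miR172a. In the LP table miR172b, miR172c and miR172d shared values, and they differed from miR172a by 2 reads in 1 library, leaf on day 8 (8985 against 8983 reads). The star strands fell into 2 sets. zma-miR172b* and zma-miR172d* had the same values in the LP table and differed by 1 read in 1 SP library (101 against 102 reads, root on day 0), while zma-miR172c* had values of its own. The fifth SP entry, miR172e, is named for a hairpin whose loss of function in maize gives the tasselseed4 phenotype. It had at most 3 reads in any library, did not pass the minimum of 10 reads in at least 2 libraries, and is not described further. The other 4 SP entries passed, miR172b* and miR172d* through root libraries alone, so that the passing of these 2 says nothing about leaf. All 4 LP entries passed the LP minimum of 1 read per 1000000 clean reads (RPM) in at least 2 libraries.

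Leaf held more miR172 guide than root in both tables. At SP on day 0 the zma-miR172a counts were 2870 and 3099 in leaf and 2320 and 1946 in root. As CPM, counts scaled to 1000000, after TMM scaling, a scaling that sets the typical miRNA equal between libraries, leaf stood at 334 and 329 and root at 189 and 187. On day 8 leaf stood at 418 and 646 CPM and root at 117 and 127 CPM. The organs did not overlap on either day, and the 2 leaf libraries of day 8 stood further apart than any other pair. The leaf excess was a log2 value of 0.82 (SE 0.26) on day 0, with an edgeR quasi-likelihood adjusted p of 0.0135. On day 8 it was 2.13 (SE 0.27), with an edgeR adjusted p of 2.81e-05. Differences between the organs were common: 43.6% of the 149 entries tested were called higher in leaf on day 0 and 36.2% lower, and on day 8 the shares were 38.9% and 36.9%.

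The day 0 call of the guide depended on scaling, while the day 8 difference kept its call and changed in size. The TMM factor lay between 0.734 and 0.937 for leaf libraries and between 1.23 and 1.29 for root libraries. With each library scaled to its listed reads instead, miR172a stood at 232 and 217 reads per 1000000 in leaf and 208 and 205 in root on day 0, a log2 value of 0.056 (edgeR adjusted p = 0.776). Leaving out leaf day 0 replicate 1 or 2 also ended that call, at edgeR adjusted p-values of 0.0633 and 0.0574. On day 8 the listed-read values were 353 and 436 reads per 1000000 in leaf and 126 and 134 in root, a log2 value of 1.52 (edgeR adjusted p = 3.55e-07).

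The LP course, scaled to clean reads, gave the same order of the organs. miR172a stood at 209, 250, 208, 202 and 497 RPM in leaf on days 0, 1, 2, 4 and 8. In root it stood at 76.6, 73.9, 64.1, 65.8 and 140 RPM on the same days. Leaf was above root on each of the 5 days, and the lowest leaf value was above the highest root value. The leaf excess over the course was a log2 value of 1.66 (SE 0.31, limma adjusted p = 0.000735) on the log2(RPM + 1) scale. Its SE and p take the 5 days of an organ, day 0 at sufficient phosphate among them, as the spread, not repeated pools. In that comparison 33.1% of 151 entries were called higher in leaf and 34.4% lower.

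**Figure D1:**
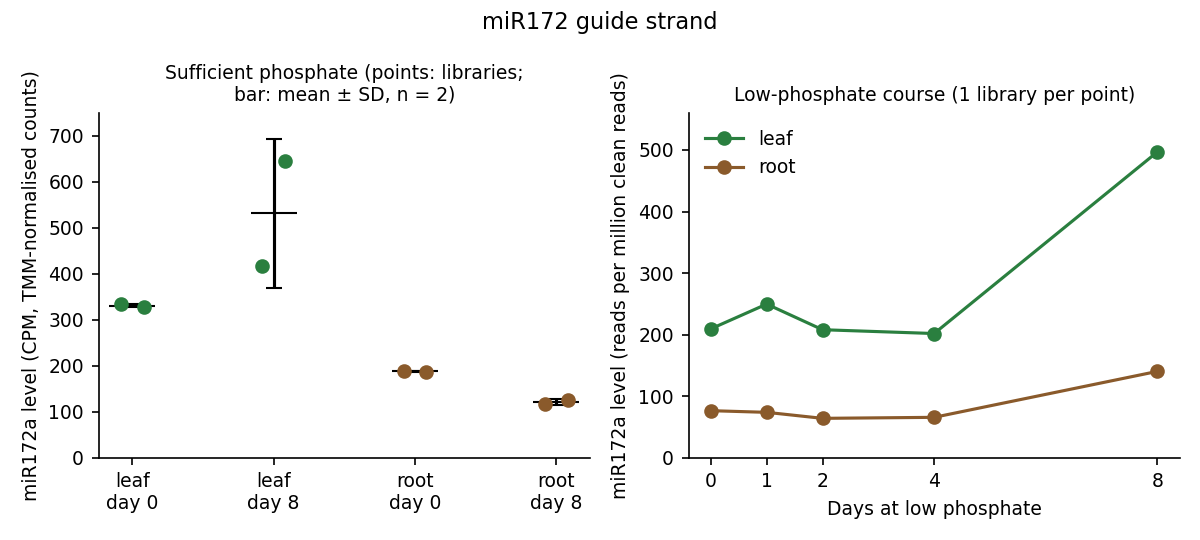
Level of the miR172a guide by organ and day, at sufficient phosphate in CPM with mean and SD of 2 libraries (left) and along the low-phosphate course in RPM with 1 library per point (right). At SP leaf stood between 329 and 646 CPM and root between 117 and 189 CPM, and at LP both organs were highest on day 8, at 497 and 140 RPM.

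After 8 days at SP, from the 3-leaf to the 4-leaf stage, the guide was higher in leaf and lower in root, and neither difference passed the test. The leaf mean was 331 ± 3.39 CPM at the start and 532.0 ± 162 CPM after 8 days (SD, n = 2 each), and both day 8 libraries were above both day 0 libraries. The log2 value was 0.68 (SE 0.26), with an edgeR adjusted p of 0.181 and an unadjusted p of 0.0242. edgeR called none of the 149 entries higher in leaf on day 8 (0.0%) and 15 lower (10.1%), with 25 at an unadjusted p under 0.05; DESeq2 called 8 in all and limma 16. Without leaf day 8 replicate 2 the miR172a value was 0.33.

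Root went from 188 ± 1.26 CPM to 122 ± 6.99 CPM (SD, n = 2 each), and the days did not overlap. The log2 value was -0.63 (SE 0.26), with an edgeR adjusted p of 0.261 and an unadjusted p of 0.0360. edgeR called 0 of the 149 entries in root in either direction (0.0%), with 22 at an unadjusted p under 0.05; DESeq2 called 8 and limma 0. For the 2 root libraries of day 8 the title was taken over a second label, which reads day 0. The leaf change minus the root change was a log2 value of 1.31 (SE 0.37), with an edgeR adjusted p of 0.0579 and an unadjusted p of 0.00466. There 0.671% of entries were called higher and 5.37% lower. Only the edgeR value for this difference lay near the threshold. The calls depended on the method. DESeq2 put miR172a past the threshold in leaf (adjusted p = 0.0241), in root (0.0361) and for the leaf change minus the root change (0.000653). Other alternatives left each of them short of it.

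At LP the guide lay between 0.837 and 1.19 times its day 0 level on days 1 to 4, and both organs had their highest value on day 8. Leaf on day 1 was 1.19 times day 0, with a 95% counting interval of 1.13 to 1.25, and days 2 and 4 were 0.993 and 0.964 times day 0. Root was at 0.965, 0.837 and 0.859 times day 0 on days 1, 2 and 4, the latter pair with intervals that end at 0.906 and 0.931. Day 8 stood apart from these days. It held 2.37 times the day 0 level in leaf (interval 2.27 to 2.48, 8983 against 2828 reads) and 1.83 times in root (1.71 to 1.97, 2172 against 1248 reads). Intervals cover counting error only, since there was 1 library at each point. Set against a size limit of 2-fold, with 10 RPM or more in the higher library, the leaf value was past and the root value was not. That limit was passed by 9.93% of the 151 entries in leaf on the higher side and by 13.2% in root, and the median entry was at a log2 value of 0.0 in leaf and 0.17 in root. In the authors' deposited table the day 8 log2 folds were 1.25 in leaf, marked significant, and 0.87 in root, not marked; it marks 22.4% of the leaf entries listed for that day as higher.

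A trend over all 5 days did not pass for the guide. The slope on log2(day + 1) was 0.29 in leaf (SE 0.18, limma adjusted p = 0.341) and 0.21 in root (SE 0.18, limma adjusted p = 0.770). Both slopes rested on day 8. Without that library they were -0.041 in leaf and -0.11 in root. limma called 3.31% of 151 entries as rising in leaf and 2.65% in root. The slopes of the organs differed by 0.086 (limma adjusted p = 0.985), where limma called 0 of 151 entries (0.0%) with 9 at an unadjusted p under 0.05, and edgeR on the recovered reads also called 0.

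The root values over 8 days had opposite signs in the tables, for the guide and for miR172b*. For miR172a they were -0.63 at SP and 0.87 at LP (log2 of value + 1), and in leaf they were 0.68 and 1.24. The tables were normalized separately and hold no common library, so the difference between them was not tested. Opposite signs were common in root, at 69 of 125 entries present in both tables (55.2%), and 41 of these were lower at SP and higher at LP. Of those, 7 entries, miR172a included, were at least as far from 0 on both scales as miR172a. In leaf 61 of 120 entries (50.8%) had opposite signs.

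**Figure D2:**
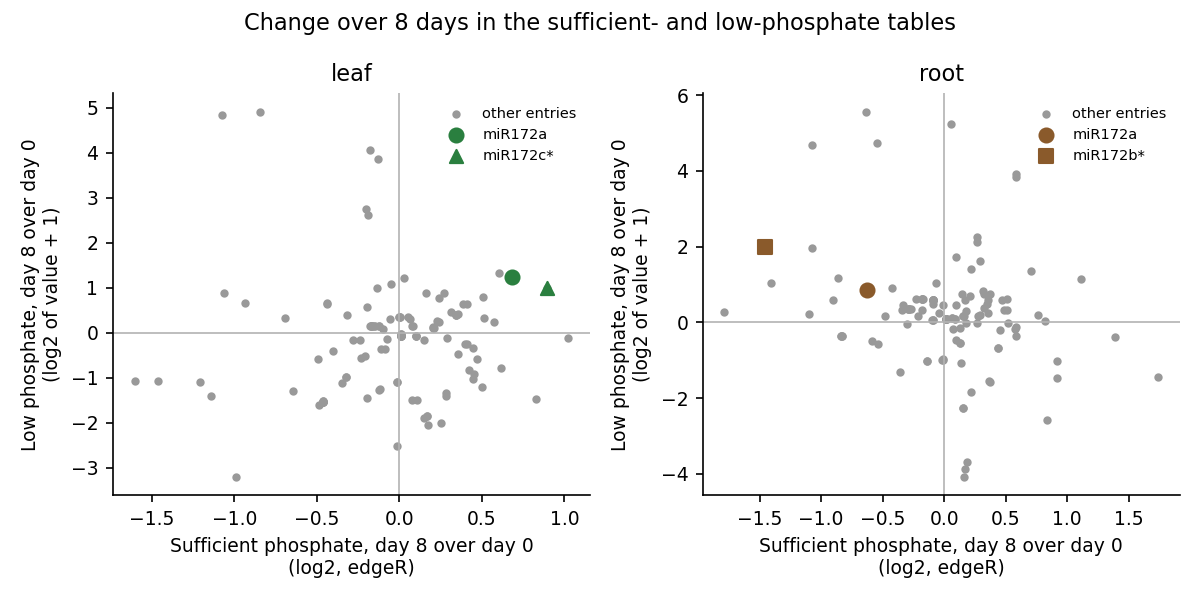
Change over 8 days at sufficient phosphate (horizontal axis, log2 from edgeR) and at low phosphate (vertical axis, log2 of value + 1), 1 point per entry, for leaf (left) and root (right). miR172a lies at 0.68 and 1.24 in leaf and at -0.63 and 0.87 in root, and miR172b* lies at -1.45 and 1.99 in root.

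Among the star strands, zma-miR172b* was found almost wholly in root. At SP its counts were 0 and 2 in leaf on day 0, 2 and 2 in leaf on day 8, 71 and 101 in root on day 0, and 30 and 27 in root on day 8. Every root library was above every leaf library. With TMM scaling the summed root reads over the leaf reads gave 68.3-fold at the start (172 against 2 reads, interval 18.6 to 568) and 14.03-fold after 8 days (57 against 4 reads, 5.19 to 53.3). Scaled to listed reads, a choice made after seeing the data, they gave 116-fold (31.7 to 967) and 20.9-fold (7.73 to 79.4). No test of the organs is given for miR172b* and miR172d*, since root alone brought them past the minimum, and the intervals cover counting error. The guide had the other order in the same libraries, with more in leaf.

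The LP table gave miR172b* in root alone. Root stood at 1.29, 0.982, 1.42, 1.26 and 8.08 RPM on days 0, 1, 2, 4 and 8, from 21, 21, 29, 22 and 125 reads. Leaf was blank on all 5 days, which in this table goes with a level under 1 RPM: 0 of 1390 filled comparisons had both libraries under 1. At LP too root alone brought miR172b* past the minimum, and no test of the organs is given.

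Within root, miR172b* had the direction of the guide from day 0 to day 8 at SP, and at LP in the single library of day 8. On LP days 1, 2 and 4 its counting intervals against day 0 included no change, so no direction is read there. At SP its mean was 7.74 ± 2.78 CPM at the start and 2.82 ± 0.257 CPM after 8 days (SD, n = 2 each), without overlap. The log2 value was -1.45 (SE 0.37), with an edgeR adjusted p of 0.0603. It passed under 10 of 16 alternatives, DESeq2 among them (-1.504, adjusted p = 0.0238), with values of -1.88 to -1.11 and adjusted p-values of 0.00358 to 0.259 over all 16. At LP the first 4 time points lay within 0.982 and 1.42 RPM, and day 8 was 6.27 times day 0 (interval 3.93 to 10.5). That level was under the 10 RPM of the size limit. The authors' deposited table gives it a log2 fold of 2.65 and marks it, as it does 21.9% of the root entries listed for that day on the higher side. The guide of the same library stood at 1.83 times. The root slope of miR172b* was 0.54 (SE 0.19, limma adjusted p = 0.124), and 0.019 without day 8. zma-miR172d* had 71 and 102 reads in root on day 0 and 30 and 27 on day 8, with an edgeR log2 value of -1.46 (adjusted p = 0.0603).

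zma-miR172c* was present in both organs at SP at a few reads per library. Its counts were 9 and 7 in leaf on day 0, 14 and 19 in leaf on day 8, 20 and 23 in root on day 0, and 21 and 4 in root on day 8. Scaled for depth, the day 8 root libraries stood at 1.84 and 0.444 CPM and the leaf libraries at 1.25 and 2.15, so the organs overlapped on that day. On day 0 root held 43 reads against 16 in leaf, a TMM-scaled ratio of 2.13 (interval 1.18 to 4.06), or 3.63 (2.003 to 6.90) scaled to listed reads. The edgeR leaf-minus-root log2 value was -1.09 (SE 0.57, adjusted p = 0.0998). It passed under 7 of 16 alternatives, listed reads (-1.84, adjusted p = 0.00454) and DESeq2 (-1.47, adjusted p = 0.0350) among them, with values of -1.84 to -0.87 and adjusted p-values up to 0.329. On day 8 the log2 value was 0.47 (adjusted p = 0.467). It was -0.17 without root day 8 replicate 2 and 1.95 (adjusted p = 0.00928) without root day 8 replicate 1, so its sign rested on those libraries. The changes over 8 days, 0.89 in leaf and -0.66 in root, did not pass (edgeR adjusted p = 0.584 and 0.571), though without root day 8 replicate 1 the root value was -2.20 (adjusted p = 0.0197).

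At LP the organ in which miR172c* was listed was leaf. Leaf had 0.370 RPM on day 0 (5 reads), blanks on days 1 and 2, 1.01 RPM on day 4 (13 reads) and 1.71 RPM on day 8 (31 reads), and root was blank throughout. Day 8 was 4.63 times day 0 (interval 1.78 to 15.3), and day 4 was 2.72 times (0.911 to 9.76). miR172c* was the member of the family whose LP trend passed: it rose in leaf with a slope of 0.31 (SE 0.072, limma adjusted p = 0.0364). It passed the minimum through leaf days 4 and 8 alone, the late points that make the slope. The root blanks entered the shared fit as a constant 0.5, which adds no spread and lowers the SE. The call therefore does not establish a rise. The days 1 and 2 in that slope are blanks set to 0.5, which is above the day 0 value. With blanks set to 0 the slope was 0.38 (adjusted p = 0.252). Leaving out leaf day 0, 1 or 2, or root day 0, 1 or 4, ended the call as well (adjusted p-values of 0.0544 to 0.133), and without leaf day 4 or day 8 miR172c* no longer passed the minimum.

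**Figure D3:**
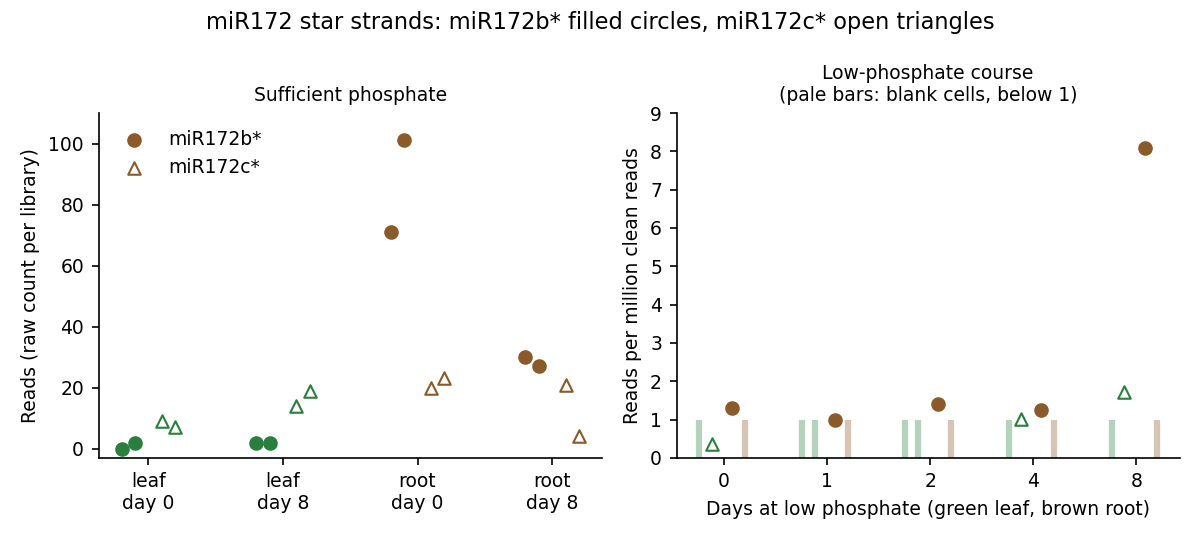
Star strands miR172b* (filled circles) and miR172c* (open triangles) in leaf (green) and root (brown), as reads per library at sufficient phosphate (left) and in RPM along the low-phosphate course (right, pale bars for blank cells). At SP miR172b* reached 101 reads in root and 2 in leaf, and at LP it reached 8.08 RPM in root on day 8.

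The star strands took different shares in the organs. miR172c* made up 100% (9 of 9 reads), 77.8%, 87.5% and 90.5% of the summed miR172b* and miR172c* reads in the SP leaf libraries. In root it made up 21.98%, 18.5%, 41.2% and 12.9%. All leaf shares were above all root shares, and the widest exact 95% counting interval, 39.99 to 97.2% in leaf day 0 replicate 2 (7 of 9 reads), stayed above all root shares but the highest. The means were 88.9% in leaf and 23.7% in root. No test of the organs is given for the share, since its difference comes mostly from miR172b*, which root alone brought past the minimum. The share was chosen after seeing the counts, and it was not computed at LP, where each strand is blank in an organ.

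The guide outnumbered the stars by far more in leaf than in root. Summed guide entries over summed star entries, all taken by name with no minimum on reads, gave log2 ratios of 8.32, 8.14, 8.03 and 7.96 in the SP leaf libraries and 3.84, 3.11, 4.04 and 4.30 in the SP root libraries. The organs were separated by a wide gap, 4.29 on the log2 scale between the means of 8.11 and 3.82. Counting miR172b* and miR172d* once left a difference of 3.62. Most star reads of the root libraries were those of miR172b* and miR172d*, which root alone brought past the minimum. No test of the organs is therefore given for the ratio. It restates the counts already given and adds no separate support. Per group, leaf held 2985 guide reads per miR172b* read at the start (826 to 24650 by counting error) and 2604 after 8 days (1017 to 9559). Root held 24.8 (21.3 to 29.1) and 43.3 (33.3 to 57.4), from single libraries at 32.7 and 19.3 at the start and 44.3 and 42.2 after 8 days. The day 0 pair spread wider than its counting interval, and the root days were not tested against each other.

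At LP the same ratio was 8.06 to 8.96 in leaf and 5.03 to 6.64 in root on the log2 scale. The organs again did not overlap, with a difference of 2.61. No test of the organs is given, since each star was listed in 1 organ alone. These ratios rest on blanks set to 0.5, miR172b* in leaf throughout, miR172c* in root throughout and in leaf on days 1 and 2, so their level and the size of the difference are set in part by that value. With the blanks moved to the limits that bring the organs closest, 1 in leaf and 0 in root, leaf lay at 7.65 to 8.52 and root at 5.12 to 7.23. The organs still did not overlap, at a difference of 1.53, in an alternative chosen after seeing the data. That is no more than the guide's own leaf excess over the course, 1.66 on the log2(RPM + 1) scale. The ratio at these limits therefore adds no separate support for a difference of the stars. In root the guide stood at 59.4, 75.2, 45.3 and 52.3 reads per miR172b* read on days 0, 1, 2 and 4, and at 17.4 on day 8. Day 8 was the lowest root ratio of the course, with guide and star both at their highest level.

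**Figure D4:**
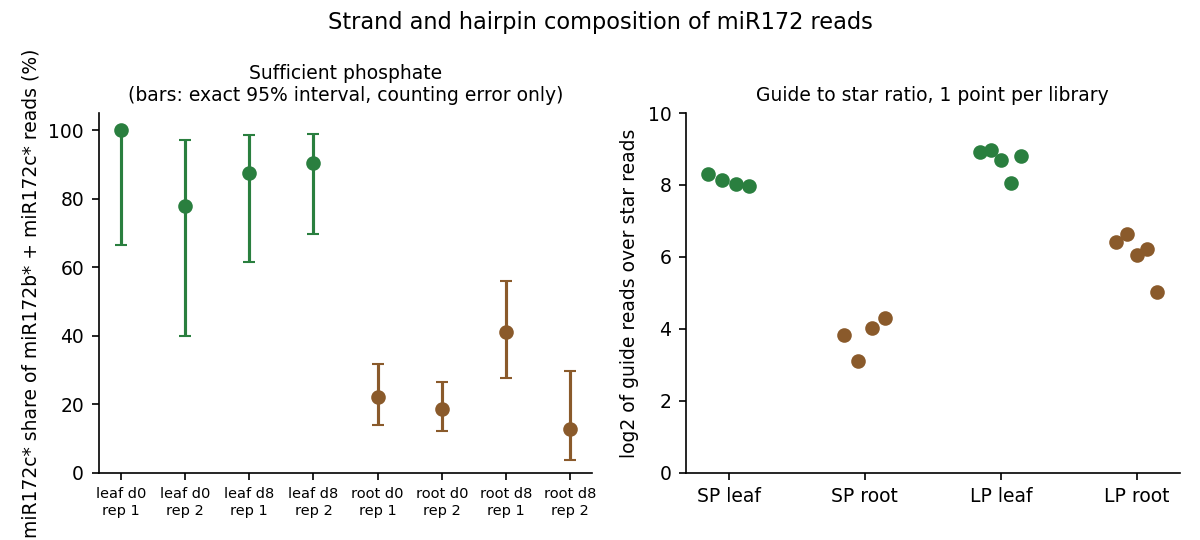
Share of miR172c* in the summed miR172b* and miR172c* reads of each SP library, in %, with exact 95% counting intervals (left), and log2 ratio of guide to star reads per library in both tables (right, LP points resting in part on blanks set to 0.5). The ratio levels of SP and LP cannot be compared, since shared reads enter under different entries. Leaf and root do not overlap in any of the 3 sets, and the shares run from 77.8 to 100% in leaf and up to 41.2% in root.

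The phase-change list joins miR172 with miR156, its counterpart in the passage to the adult phase, and miR529, a family related to miR156 that also targets SPL factors. Of its 22 entries tested at SP in leaf, 10 fell between day 0 and day 8, all of them miR156, and 0 rose, beside 10.1% lower and 0.0% higher over all entries. The count was 0 without leaf day 0 replicate 2, 3 without either root day 0 library, 4 without either root day 8 library and 7 to 9 without any of the other leaf libraries. The list's median log2 value was -0.32, that of its 18 miR156 and miR529 entries -0.46 and that of all entries 0.00. Many of these miR156 entries share reads and are not independent. In root 0 of 22 passed by edgeR, with 5 at an unadjusted p under 0.05, beside 22 of all 149 entries. Of the 5 in the list, 3 were miR172 entries, with miR172b* and miR172d* nearly the same reads. DESeq2 called 4 of the list. For the leaf change minus the root change over the 8 days, 6 of 22 passed, beside 5.37% lower over all entries. All 6 had the lower change in leaf, which is not a lower level, and none of them was miR172. The 4 miR172 entries had a median of 1.89, in which miR172b* and miR172d* are nearly the same reads. Both had at most 2 reads in any leaf library, and the value of miR172b* ran from 1.39 to 5.58 with a library left out. The median is therefore no measure of the family. That count of 6 was 0 without either leaf day 0 library, 1 or 2 without a root library, 7 without leaf day 8 replicate 1 and 12 without leaf day 8 replicate 2. Along the LP course 1 of 22 was called as rising in leaf, beside 3.31% over all entries. This was miR172c*, whose call rests on blanks and on the points that brought it past the minimum. In root 0 of 22 rose, beside 2.65%. An unadjusted limma p under 0.05 was reached by 2 of 22 in leaf and 1 in root, beside 34 and 27 of all 151 entries. On recovered reads edgeR called 1 of the list in leaf and 0 in root. Its calls over all entries are given in the closing section.

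miR156d had the highest mean level of the miR156 guides and miR529 that of its own family. miR156d stood at 86761 CPM in SP leaf on day 0 and fell to 69268 on day 8, a log2 value of -0.32 (edgeR adjusted p = 0.0332). In root it stood at 53833 and 56375 CPM, a log2 value of 0.067 (adjusted p = 0.752). miR529 was rarer, at 9.95 and 6.41 CPM in leaf and 2.08 and 1.502 in root, and did not pass between the days (adjusted p = 0.259 and 0.571). At LP neither had a trend that passed in leaf (limma adjusted p = 0.506 and 0.210).

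Because the ratio of miR156d to miR172a is taken within a library, it does not depend on scaling. At SP it was 254 and 269 in leaf on day 0, 161 and 110 in leaf on day 8, 296 and 277 in root on day 0, and 485 and 444 in root on day 8. The lowest ratios were those of leaf on day 8 and the highest those of root on day 8, with day 0 of both organs between them. The organs did not overlap, and the leaf-minus-root log2 difference was -0.96 (two-sided exact permutation p = 0.0286, the smallest possible). The p rose to between 0.0571 and 0.114 when any 1 of leaf day 8 replicate 1 or 2 or a root library was left out.

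Along the LP course the ratio was 519, 229, 379, 465 and 111 in leaf and 1111, 1460, 1495, 1576 and 661 in root on days 0, 1, 2, 4 and 8. Day 8 was the lowest value in each organ, and leaf was below root on every day. The log2 difference was -2.02 (two-sided exact permutation p = 0.00794), and all p-values with a library left out stayed between 0.00794 and 0.0159. Paired by day the p was 0.0625, the smallest possible. These ratio tests were chosen after seeing the data. In root the ratio on day 8 was above that on day 0 at SP and below it at LP, as single libraries at LP. The tables already differed on day 0, before any time at low phosphate. Root then stood at 296 and 277 in the SP table and 1111 in the LP table, and leaf at 254 and 269 against 519. LP root on day 8, at 661, was above every SP root library. The opposite directions can therefore not be assigned to phosphate, and the difference between the tables was not tested.

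**Figure D5:**
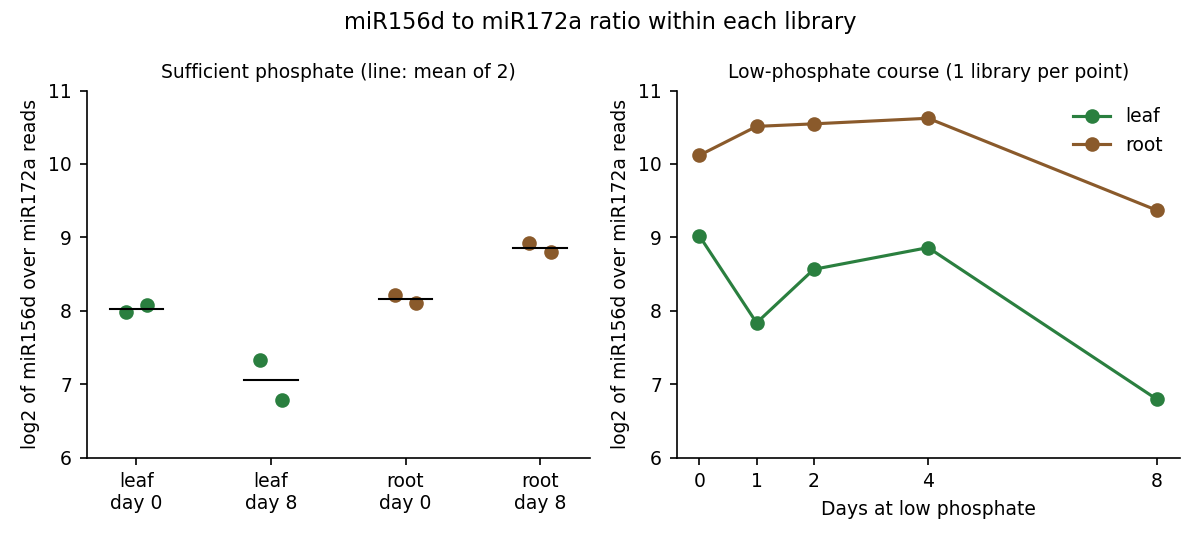
Log2 of the miR156d to miR172a read ratio in each library, by organ and day at sufficient phosphate (left, line at the mean of 2) and along the low-phosphate course (right, 1 library per point). Leaf lies below root in both panels, with plain ratios from 110 to 269 in SP leaf, 277 to 485 in SP root, 111 to 519 in LP leaf and 661 to 1576 in LP root.

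Of all other entries, miR167h*, a star strand of a family that targets auxin response factors, had the level most like that of miR172a in each table. Pearson's r over the 8 SP libraries was 0.971 for miR167h*, 0.959 for miR164e and 0.952 for miR396a, of 145 entries compared. Over the 10 LP libraries it was 0.935 for miR167h*, 0.902 for miR395n* and 0.897 for miR169a*, of 147 entries. These correlations share organ and day and are a description. Within an organ, r for miR167h* was 0.960 in SP leaf and 0.957 in SP root (4 libraries each) and 0.530 in LP leaf and 0.830 in LP root (5 libraries each). Its mean level went from 926 to 1405 CPM in leaf and from 141 to 77.6 CPM in root over the 8 SP days. Neither difference passed (edgeR adjusted p = 0.259 and 0.103).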

How the data were processed

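Small RNA of 18 libraries was sequenced as tags of 50 nt, from which the authors removed poor tags and contaminants before annotating known miRNAs, per the series' design text. No source used here names the aligner, the genome build or the release of miRBase, and no coordinates or sequences are printed. For the SP table the authors deposited whole numbers per miRNA and library, read here as raw counts; a suffix in their column names is not explained. At LP the deposited unit is a signal: reads of a miRNA per 1000000 clean reads of the library (RPM). The authors' log2 folds and p-values at LP compare single libraries by a test that is not given, and their marks are used as theirs. A deposited 0.01 stands for 0 reads (27 cells), 266 comparison cells are blank, and 13 cells that repeat day 0 without a fold were treated as blank. All LP values were whole reads within 0.03 reads at the recovered depths, where 3 reads equal 0.140 to 0.233 RPM.

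Identical rows of a family were counted once. The SP test was that of edgeR 4.0.16 under R 4.3.3 (TMM, robust quasi-likelihood, at least 10 counts in at least 2 libraries, 1 coefficient per group over 8 libraries); the SE is the log2 value over the square root of F. LP values were tested with limma 3.58.1 (trended, robust) on log2(RPM + 1), blanks at 0.5, at least 1 RPM in at least 2 libraries, which understates changes of rare miRNAs. Adjusted p-values are Benjamini-Hochberg values over all entries of a table, at a threshold of 0.05. DESeq2 1.42.0, limma on log2 CPM, other scalings and filters, each library left out in turn and a replicate block were alternatives. Count ratios carry exact 95% binomial intervals, for counting error only. On simulated data for the SP leaf comparison the edgeR fit called 16 of 16 entries changed 4-fold, 12 of 13 changed 2-fold and 0 of 116 unchanged. All simulated entries had the same spread and no difference between the organs, and no smaller fold was planted. The simulation therefore does not show the power or the false calls of that fit on the real counts. The simulated LP leaf trend gave 30 of 30 at a slope of 1 and 1 of 123 unchanged. That slope was planted only in more abundant entries and is larger than the miR172 slopes reported here. It therefore does not show the power for those trends. Members, lists and the entries named were chosen with earlier results of these data known. Named were all miR172 entries, the most abundant guide of miR156, miR157 and miR529, and the 3 entries per table with the highest correlation with miR172a. Headings of the SP folds contradict the block headings, which were followed, and those folds were not used.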

Additional observations from a re-analysis of the deposited data

Results flagged for a closer look

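The change of miR172a over 8 days at SP stood apart between the organs. Both leaf libraries of day 8 were above both of day 0 and both root libraries of day 8 below both of day 0, a difference of 1.31 on the log2 scale with an edgeR adjusted p of 0.0579. In root the miR172a value over 8 days was -0.63 (log2) at SP and 0.87 (log2 of value + 1) at LP. For miR172b* in root it was -1.45 at SP and 1.99 at LP. The SP and LP values come from tables that were normalized separately, with 1 LP library per day, and their difference was not tested.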

How the results depend on the processing

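The guide's leaf excess on day 8 at SP and over the LP course kept direction and call under each alternative run. The guide's changes over 8 days at SP, which missed the threshold in the edgeR fit, passed under several alternatives: in leaf with scaling to listed reads (0.79), DESeq2 (0.69) and all rows kept (0.56); in root with median-ratio scaling (-0.66), listed reads (-0.67), DESeq2 (-0.66) and all rows kept (-0.61); and for their difference with median-ratio scaling (1.34), listed reads (1.46), DESeq2 (1.34) and all rows kept (1.17). The day 0 organ difference was 0.056 with listed reads, and miR172c* on day 8 was -0.13 there. Permuted within days or paired by day, the strand ratio differences of 4.29 and 2.61 and the miR156d ratio differences of -0.96 and -2.02 could not reach the threshold. Leaving out each library in turn, where a lone library is assumed to vary like the other groups, gave, for miR172a at SP, 0.33 to 0.96 in leaf (passing without leaf day 8 replicate 1 or any 1 root library), -0.72 to -0.63 in root (passing without any 1 root or leaf day 8 library), 0.96 to 1.59 for their difference (passing without the same libraries), 0.69 to 0.82 and 1.78 to 2.41 for leaf against root on days 0 and 8, and -0.085 to 4.11 for miR172b* and miR172d* in leaf, where the lowest value is without leaf day 0 replicate 1. For miR172c* it gave -0.17 to 1.95 for the organs on day 8. At LP it gave slopes of -0.041 to 0.44 in leaf and -0.11 to 0.41 in root, -0.25 to 0.40 for their difference (-0.25 without leaf day 8 and -0.12 without root day 0), and 1.42 to 1.86 for leaf against root, with the same values for miR172b. The miR156d ratio differences ranged from -1.14 to -0.71 at SP and from -2.23 to -1.66 at LP. The cause was not tested.

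Over all entries, calls in SP leaf numbered 15, against 6 with median-ratio scaling, 6 without a filter, 8 by DESeq2, 3 with only the groups compared and 0 to 18 with a library left out. In SP root they numbered 0, against 15 with median-ratio scaling, 11 with listed reads, 13 with all rows kept, 7 without a filter, 8 by DESeq2 and 0 to 19 with a library left out. For the difference they numbered 9, against 4 with median-ratio scaling and by DESeq2, 5 with listed reads and without a filter, and 0 to 20. Over all alternatives, calls of the phase-change list ranged from 0 to 14 in leaf (10 in the edgeR fit as reported), 0 to 7 in root (0), 0 to 12 for the difference (6) and 8 to 20 for the organs on day 0 (19). Of those 19, 14 of the 22 list entries were higher in leaf and 5 lower. Over all 149 entries the day 0 shares were 43.6% higher and 36.2% lower, so calls were common throughout. LP trends numbered 8 in each organ, against 25 and 24 with day on a linear scale, 14 and 14 by edgeR on recovered reads, 5 and 4 with all rows kept, and 0 to 18 with a library left out. In root they numbered 15 at a pseudocount of 0.5 and 0 at 5.

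The labels do not say that replicate numbers mark a shared pool. Between leaf and root of the same day, correlations of same-numbered deviations were 0.311 on day 0 and -0.105 on day 8. Across days they ran from -0.183 to -0.0181. These values do not settle whether same-numbered libraries shared a pool. With a replicate block miR172a was 0.66 in leaf, -0.63 in root, 1.29 for their difference and 0.82 and 2.11 for the organs on days 0 and 8. The block changed no miR172 call and moved the calls for the leaf change minus the root change from 9 to 1.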
